A study of Homo sapiens with 24 samples.

Results

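The genes described here are 42 human genes of mitosis and its spindle checkpoint, measured by poly(A) RNA sequencing in HK-2 cells, an immortalised line from human proximal tubule epithelium. They were chosen by symbol and found by Ensembl ID, and all 42 were present among the 65180 gene IDs of the count table. Hypoxic cells were kept at 0.3% oxygen and carried the soluble guanylate cyclase activator BAY 60-2770 (called BAY below, 3 libraries) or solvent (DMSO, with HCl and albumin; 3 libraries). Normoxic cells carried TGF-β1 at 2 ng/mL with BAY (5 libraries), TGF-β1 without it (5 libraries), BAY without TGF-β1 (3 libraries) or solvent (5 libraries). In all 6 groups the cells had gone without serum overnight and then spent 24 h in their condition. The labels give the BAY dose as 1 mM, an uncertain unit that no value in the table could settle. All libraries come from 1 cell line, and since the labels call the replicates biological but do not say how they were separated, the p-values speak only for the spread among these samples.

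Mitosis begins when CDK1 bound to cyclin A or cyclin B becomes active, and it is helped along by the Aurora and Polo-like kinases. Kinetochores, built on CENP-A chromatin, catch spindle microtubules, and the checkpoint proteins of the MAD and BUB families hold back the anaphase-promoting complex until every chromosome is attached. CDC20 and the ubiquitin-conjugating enzyme UBE2C then let that complex destroy securin and cyclin B, the chromatids part, and the central spindle guides cytokinesis. Transcripts of these genes accumulate in G2 and M phase and are low in resting cells, which is why they are widely read as a sign of proliferation. Soluble guanylate cyclase makes cyclic GMP in answer to nitric oxide, and TGF-β1 is known for arresting many epithelial cells in G1 and for driving fibrotic change in the tubule.

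Totals per library ran from 78862528 to 105571250 counts, and all 42 genes passed the filter on low counts in both fits. Kidney epithelial markers were present (PAX8 averaged 313 CPM and CDH6 971 CPM over all libraries, where CPM is counts per 1e6 counts of the library), while 5 of 7 proximal tubule markers stood under 1 CPM, among them LRP2 at 0.151 CPM and SLC22A6 at 0. Some defining markers of other cell types were at or near 0, among them CD3E, UMOD and AQP2 at 0 and COL1A2 at 0.0099 CPM, and others were not. EGFL7 of the endothelial list averaged 36.4 CPM, with 4 of its 6 markers under 1 CPM. SCNN1A and AQP3 of the distal nephron list averaged 19.2 and 4.25 CPM, with 5 of its 7 markers under 1 CPM. The summed distal nephron list ran from 8.01 to 10.1 CPM with TGF-β1 against 36.7 to 39.1 CPM in normoxic solvent cells. CD68 and CD74 of the immune list averaged 132 and 159 CPM, with 5 of its 7 markers under 1 CPM. The summed immune list ran from 219.2 to 248 CPM with TGF-β1 and from 248.3 to 257.7 CPM in normoxic cells with BAY, against 371.3 to 395.3 CPM in normoxic solvent cells. The summed fibroblast list ran from 286.2 to 299.5 CPM with TGF-β1 against 109.7 to 134.1 CPM in normoxic solvent cells, with 2 of its 6 markers under 1 CPM. Over all libraries COL1A1 and LUM had the highest means of that list, at 110.7 and 90.55 CPM. The summed podocyte list ran from 1228 to 1351 CPM in hypoxic cells with BAY against 450.6 to 486 CPM in hypoxic solvent cells, carried by SYNPO. The part of these lists in the results below was not tested. In bulk RNA, fewer cycling cells and less mitotic RNA per cell cannot be told apart. On principal components 3 and 4 of all genes, the normoxic solvent, TGF-β1 and TGF-β1 plus BAY libraries fell into 2 subsets (solvent replicates 1, 2 and 5 and replicates 1 and 2 of the other groups in the first), which no label names. The normoxic BAY and hypoxic libraries could not be placed in either.

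Many promoters of mitotic genes carry the cell cycle homology region (CHR), read by the DREAM and B-MYB-MuvB complexes, often a short way downstream of CCAAT boxes, read by NF-Y. Sequences were available for 35 of the 42 genes in RefSeq (GRCh38.p14), each window running from 250 bases before to 50 after the start site; AURKA, BIRC5, BUB3, FOXM1, TPX2, TTK and UBE2C were not matched. The letters TTTGAA, sought on both strands, were in the windows of 25 of the 35 genes. They were in 63.6% of these genes' 44 windows, against 15.2% of all 35116 windows of the same length. CCAAT, sought on both strands, was in 70.5% of the 44 windows against 34.6% of all windows, and both motifs stood together in 47.7% against 5.9%. The variant TTCGAA was in 4.55% against 1.45%, and was held by BUB1 and NDC80. The motifs are printed below for 4 genes, with upstream bases only and with the CHR and CCAAT letters of either strand in capitals. They were taken by role group, as the named gene with the largest TGF-β1 change among those whose exon-free upstream stretch held TTTGAA. A role group without such a stretch has no gene here. CDC20 has both motifs close to its start and was among the few genes lower with BAY in hypoxia. KIF4A is a chromokinesin that rose with TGF-β1, ECT2 the only gene of the list that fell with it, and MKI67 a proliferation marker that was called in no BAY comparison.
CDC20, chr1:43358835-43358954, plus strand: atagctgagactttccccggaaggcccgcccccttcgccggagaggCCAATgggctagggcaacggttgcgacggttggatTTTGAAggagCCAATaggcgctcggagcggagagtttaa
KIF4A, chrX:70289970-70290089, plus strand: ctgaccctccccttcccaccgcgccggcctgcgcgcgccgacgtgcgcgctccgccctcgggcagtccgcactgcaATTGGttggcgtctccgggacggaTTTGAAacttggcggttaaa
ECT2, chr3:172750562-172750681, plus strand: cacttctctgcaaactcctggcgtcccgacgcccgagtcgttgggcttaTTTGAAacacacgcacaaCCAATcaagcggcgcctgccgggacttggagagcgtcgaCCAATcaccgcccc
MKI67, chr10:128126424-128126543, minus strand: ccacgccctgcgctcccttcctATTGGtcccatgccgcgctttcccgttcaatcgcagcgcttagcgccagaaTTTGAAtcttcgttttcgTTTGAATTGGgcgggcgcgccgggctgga
The stretch of MKI67 holds 2 copies of TTTGAA, the second running into an ATTGG (the reverse complement of CCAAT), and that of ECT2 holds 1 copy with 2 CCAAT boxes. The printed stretches were chosen because they hold TTTGAA. Its presence in ECT2, which fell with TGF-β1, and in KIF4A and MKI67, which rose with it, is therefore no result. The 25 genes with TTTGAA had a median log2 fold change of 0.54 with TGF-β1 and -0.19 with hypoxia, and the 10 without it had 0.65 with TGF-β1 and -0.11 with hypoxia. With BAY the order was reversed. The 25 had 0.26 in normoxia, 0.18 in hypoxia and 0.22 on top of TGF-β1, and the 10 had 0.17, 0.05 and 0.18. These medians are given as a description only. A match shows that the letters are there and says nothing of a factor's binding.

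**Figure D1:**
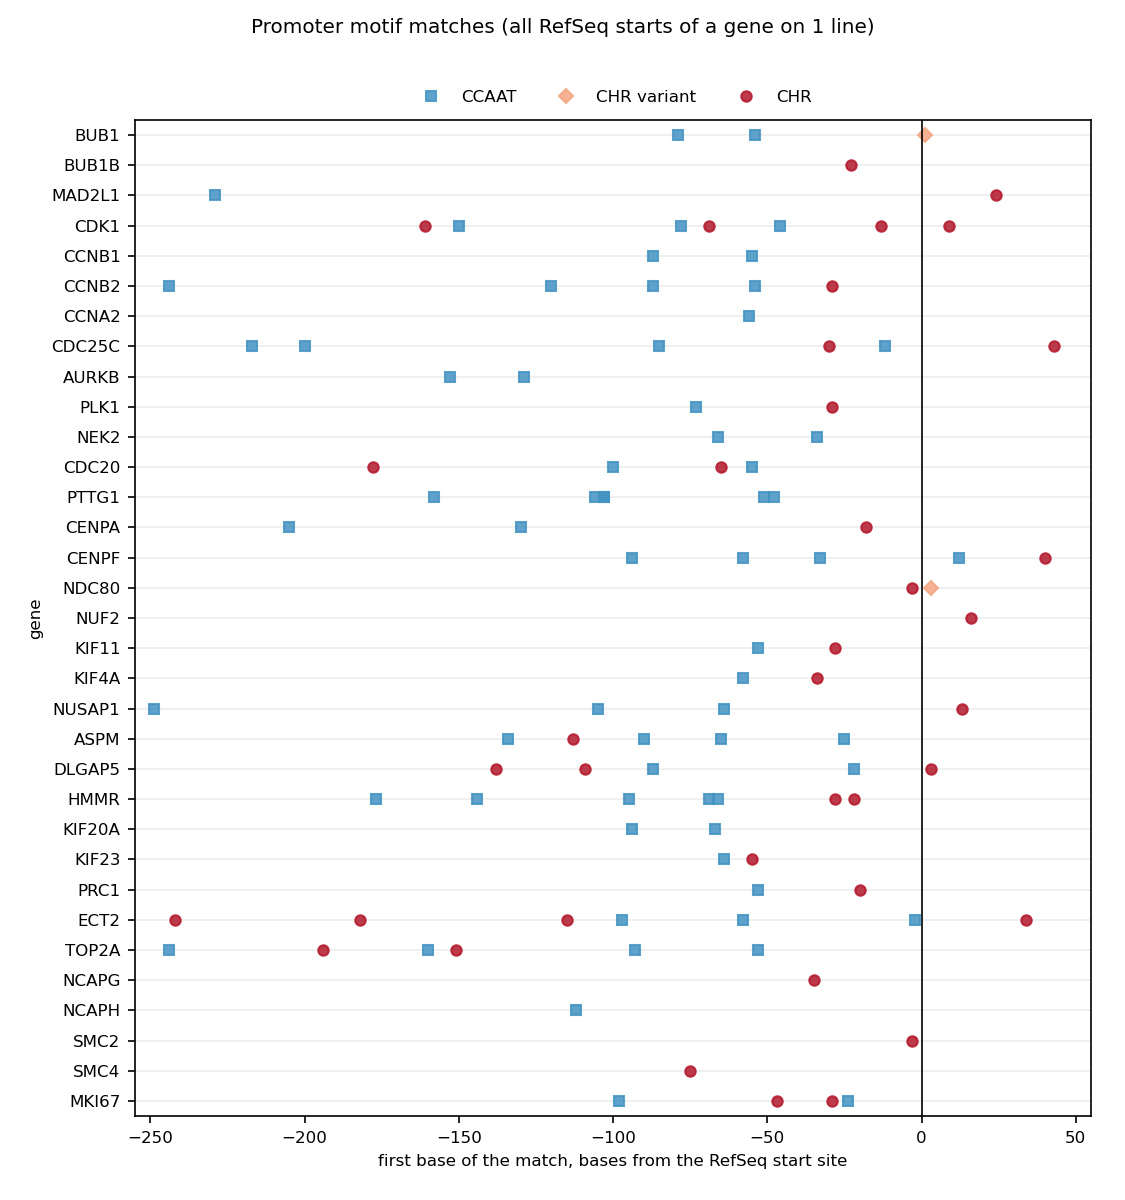
Each point is the first base of a match to TTTGAA (CHR, red), TTCGAA (CHR variant, orange) or CCAAT (blue) on either strand, placed by its distance in bases from the RefSeq start site, for the members that hold at least 1 match. CCAAT points lie mostly upstream of the start and CHR points mostly lie nearer to the start than the CCAAT points.

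Per kb of exon, the group mean of normoxic solvent cells ran from 3.55 CPM per kb for CDC25C to 69.8 CPM per kb for TOP2A, with a median of 17.1 CPM per kb over the 42 genes. With TGF-β1 plus BAY the median was 28.3 CPM per kb. The summed CPM of the 42 genes averaged 4392 ± 389 in hypoxic cells with BAY and 3886 ± 336 in hypoxic solvent cells (SD, n = 3 each). It averaged 6965 ± 352 with TGF-β1 plus BAY and 6058 ± 389 with TGF-β1 alone (SD, n = 5 each). In normoxic cells with BAY it averaged 4978 ± 197 (SD, n = 3), against 4359 ± 120.1 in normoxic solvent cells (SD, n = 5). By group mean, 37 of the 42 genes were highest with TGF-β1 plus BAY, and 28 were lowest in hypoxic solvent cells. The exceptions at the top were UBE2C (hypoxia with BAY), KIF20A (hypoxic solvent), BUB1 and MKI67 (TGF-β1 alone) and ECT2 (normoxic BAY). Hypoxic solvent replicate 3 had a summed level of 4273 CPM against 3668 and 3717 in the other two, and replicate 2 of hypoxia with BAY had 4842 against 4165 and 4170. TGF-β1 replicates 1 and 2 summed to 5620 and 5647 CPM, below the 6309 to 6362 CPM of replicates 3 to 5, which lie in the second subset.

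**Figure D2:**
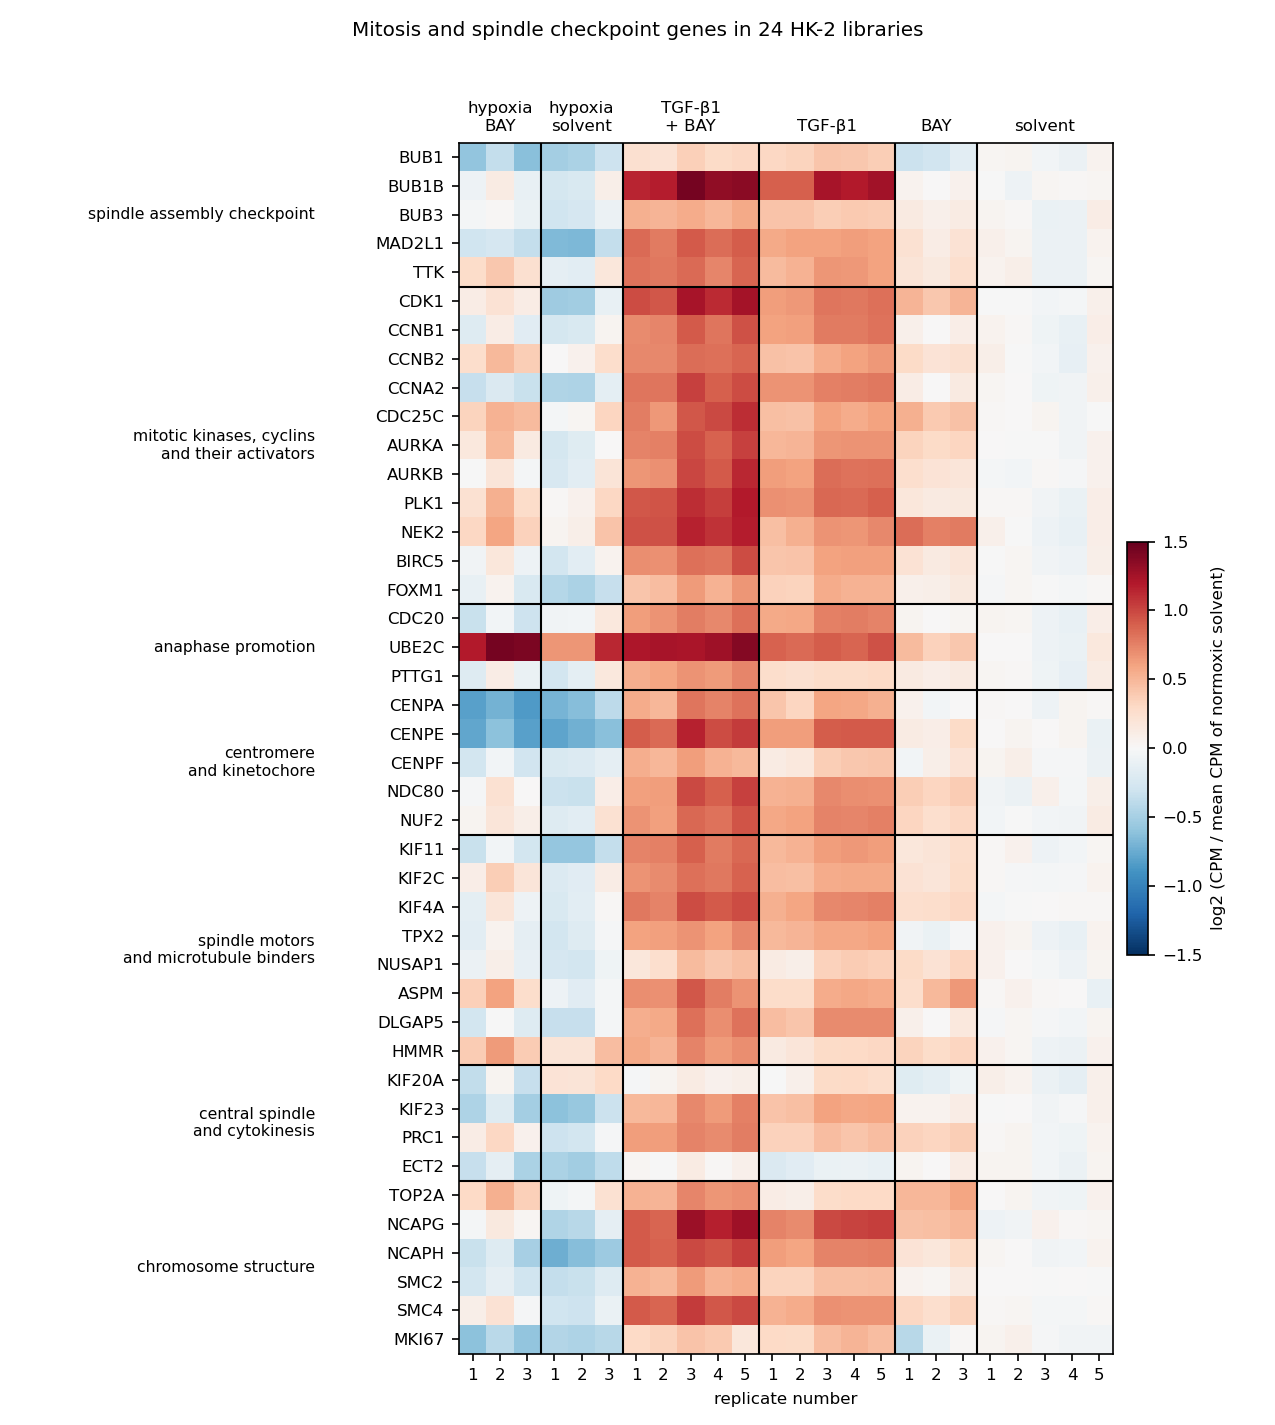
Rows are the 42 genes by role, columns the 24 libraries by group, and colour is log2 of CPM over the mean CPM of the normoxic solvent libraries. The TGF-β1 columns are red for nearly every row, ECT2 excepted, and the hypoxic solvent columns are mostly blue, with UBE2C, KIF20A and HMMR red.

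TGF-β1 raised nearly the whole list. Set against solvent in normoxia, 41 of the 42 genes rose and 1, ECT2, fell (edgeR's quasi-likelihood test at a Benjamini-Hochberg adjusted p below 0.05, over 21639 genes), while 29.5% of all tested genes were called higher and 32.5% lower. The median log2 fold change was 0.57 for the 42 genes and -0.04 for all tested genes. A rise of at least 1.5-fold was found for 19 of the 42, against 11.3% of all tested genes. A change given below as a number with an SE alone is likewise a log2 fold change. The groups did not overlap for 40 of the 42 and for 50.8% of all tested genes, of which 62.0% were called in either direction.

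Among checkpoint genes all 5 rose. BUB1B, the BubR1 subunit of the mitotic checkpoint complex, stood at 76.3, 76.0, 96.3, 93.1 and 98.1 CPM with TGF-β1 and at 40.8, 39.0, 41.6, 41.5 and 41.8 CPM in solvent cells. Every TGF-β1 library was above every solvent library, and replicates 3 to 5 lay above 1 and 2 (log2 fold change 1.10, SE 0.072, adjusted p = 2.28e-10). MAD2L1, which binds CDC20 at unattached kinetochores, had 71.9, 74.1, 74.1, 75.4 and 74.0 CPM with TGF-β1, against 51.2, 50.0, 45.6, 45.7 and 50.6 CPM with solvent. Its groups lay well apart (log2 fold change 0.60, SE 0.038, adjusted p = 1.19e-10), as did those of the checkpoint kinase gene TTK (log2 fold change 0.58, SE 0.045, adjusted p = 1.67e-09).

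All 11 kinases, cyclins and activators rose. PLK1, the Polo-like kinase of mitotic entry and spindle assembly, had 105, 104, 119, 118 and 122 CPM with TGF-β1 and 66.3, 66.6, 63.4, 61.3 and 70.2 CPM with solvent, with no overlap (log2 fold change 0.79, SE 0.055, adjusted p = 3.44e-10). The chromosomal passenger kinase gene AURKB rose likewise (log2 fold change 0.75, SE 0.075, adjusted p = 9.39e-08), and so did CDK1, which encodes the kinase that drives entry into mitosis (log2 fold change 0.74, SE 0.058, adjusted p = 1.84e-09). The remaining 8 lay between 0.46 (SE 0.050) for FOXM1, a transcription factor of the G2 and M programme, and 0.73 (SE 0.044) for CCNA2, the cyclin A2 gene. Among them the B-type cyclin genes CCNB1 and CCNB2 rose by 0.72 (SE 0.055) and 0.54 (SE 0.050), and BIRC5, which encodes survivin of the passenger complex, by 0.54 (SE 0.056). In the anaphase group UBE2C stood at 103, 101, 105, 102 and 109 CPM with TGF-β1, against 56.3, 55.9, 52.9, 52.0 and 62.4 CPM with solvent. The 5 TGF-β1 values lay within a narrow band far above solvent (log2 fold change 0.89, SE 0.045, adjusted p = 4.33e-12). CDC20 rose by 0.68 (SE 0.050), and PTTG1, which encodes securin, by 0.27 (SE 0.040), the smallest change of the 3.

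The 5 centromere and kinetochore genes and the 8 spindle motor and microtubule binder genes all rose. CENPE, a kinetochore motor, had 83.6, 83.4, 101, 102 and 102 CPM with TGF-β1, against 54.2, 55.6, 54.4, 55.4 and 50.3 CPM with solvent (log2 fold change 0.80, SE 0.068, adjusted p = 7.8e-09). The lowest TGF-β1 library of CENPE was far above the highest solvent library. Its neighbours NUF2 and NDC80, subunits of the microtubule-binding NDC80 complex, rose by 0.69 (SE 0.057) and 0.63 (SE 0.074). KIF4A, whose promoter is shown above, stood at 82.2, 85.6, 93.8, 94.8 and 96.1 CPM with TGF-β1 and 55.5, 56.4, 57.2, 57.4 and 57.5 CPM with solvent, again with no overlap (log2 fold change 0.67, SE 0.049, adjusted p = 8.03e-10). DLGAP5, a microtubule-bundling protein gene, and KIF11, the motor gene that pushes spindle poles apart, followed at 0.60 (SE 0.065) and 0.58 (SE 0.040). TPX2, which activates AURKA on the spindle, rose by 0.55 (SE 0.038).

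The central spindle group was divided. KIF23 and PRC1, which encode the centralspindlin motor and a bundler of antiparallel microtubules, rose by 0.53 (SE 0.051) and 0.41 (SE 0.035). ECT2, the exchange factor that activates RhoA at the division plane, had 108, 111, 117, 118 and 116 CPM with TGF-β1, against 129, 129, 122, 118 and 129 CPM with solvent (log2 fold change -0.14, SE 0.035, adjusted p = 0.00204). Its highest TGF-β1 library was just above the lowest solvent library, and in the second subset alone the fall was no longer called. KIF20A, a motor that brings passenger proteins to the midzone, had 77.8, 82.6, 95.7, 96.0 and 93.6 CPM with TGF-β1 and 82.9, 81.1, 73.3, 71.3 and 82.1 CPM with solvent. The groups overlapped, and a rise called over all libraries (log2 fold change 0.19, SE 0.058, adjusted p = 0.00856) was 0.01 at an adjusted p of 0.881 in the first subset alone.

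All 6 chromosome structure genes rose. NCAPG, a condensin I subunit gene, had 115, 112, 136, 138 and 140.5 CPM with TGF-β1, against 65.0, 65.7, 71.7, 69.4 and 69.8 CPM with solvent (log2 fold change 0.90, SE 0.082, adjusted p = 2.4e-08). The lowest TGF-β1 library was above the highest solvent library by more than the whole solvent range. NCAPH, from the same complex, rose by 0.69 (SE 0.039) and SMC4, a core subunit of both condensins, by 0.62 (SE 0.038). SMC2, its partner in the condensin core, rose by 0.41 (SE 0.033), and TOP2A, the topoisomerase that untangles sister chromatids, by 0.21 (SE 0.052). Within subsets, the median log2 fold change of the 42 genes was 0.48 in the first and 0.69 in the second, against -0.02 and -0.03 for all tested genes. The normoxic BAY libraries have no subset.

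**Figure D3:**
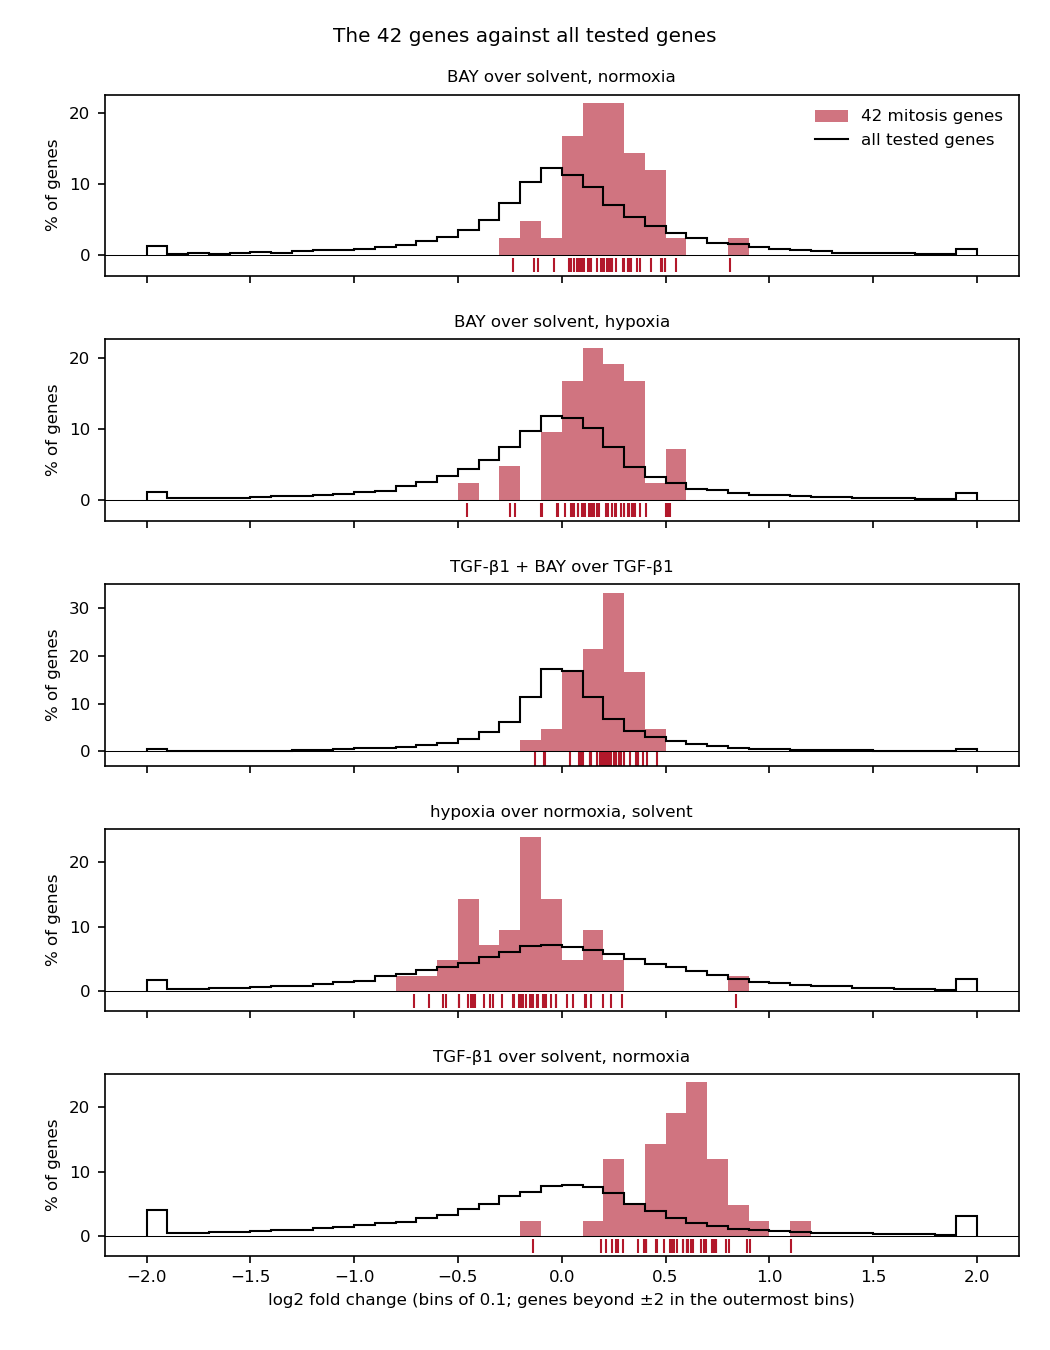
For each comparison the red bars give the share of the 42 genes, and the black outline the share of all tested genes, in bins of log2 fold change; ticks mark single genes. The red bars lie to the right of the outline with TGF-β1 and, less far, in the 3 BAY comparisons, and slightly to its left in hypoxia.

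BAY in normoxia raised part of the list. Against solvent, 25 of the 42 genes rose, BUB1 fell and 16 were not called, where 20.6% of all tested genes were called higher and 23.3% lower (edgeR quasi-likelihood test, adjusted over 21316 genes). The median log2 fold change was 0.21 for the 42 genes and 0.00 for all tested genes, and NEK2 alone rose at least 1.5-fold, as 6.97% of all tested genes did. These changes share their normoxic solvent libraries with the TGF-β1 and hypoxia comparisons.

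NEK2, a centrosome kinase that helps to part the spindle poles, had 73.8, 70.1 and 71.0 CPM in normoxic cells with BAY, against 43.8, 41.4, 39.3, 38.5 and 44.2 CPM with solvent. All 3 BAY libraries lay close together and far above the 5 solvent libraries (log2 fold change 0.81, SE 0.080, adjusted p = 1.62e-06). CDK1 stood at 103, 95.8 and 103 CPM with BAY and 72.0, 72.2, 70.0, 70.7 and 76.2 CPM with solvent, without overlap (log2 fold change 0.50, SE 0.076, adjusted p = 0.000107). CDC25C, the phosphatase gene that switches CDK1 on, rose by a like amount (log2 fold change 0.48, SE 0.072, adjusted p = 5.97e-05). In all, 7 of the 11 kinase, cyclin and activator genes rose and CCNB1, CCNA2, PLK1 and FOXM1 were not called.

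Among checkpoint genes, BUB1, a kinase that recruits other checkpoint proteins to kinetochores, had 60.2, 61.7 and 67.2 CPM with BAY, against 76.8, 77.4, 72.9, 70.6 and 77.9 CPM with solvent. Each BAY library was under each solvent library (log2 fold change -0.23, SE 0.061, adjusted p = 0.00558), though against the second subset's solvent libraries alone the fall was 0.18 in size with an adjusted p of 0.105. TTK and MAD2L1 rose by 0.22 (SE 0.067) and 0.20 (SE 0.063). Both calls were lost without BAY replicate 1 or 3: TTK then changed by 0.21 and 0.18, at adjusted p = 0.063 and 0.0988, and MAD2L1 by 0.17 and 0.18, at adjusted p = 0.0987 and 0.0902. Both were also lost with replicate number as a block and against the first subset's solvent libraries alone. UBE2C was the only anaphase gene to rise (log2 fold change 0.43, SE 0.099, adjusted p = 0.00339). Of kinetochore genes NDC80 and NUF2 rose by 0.38 (SE 0.088) and 0.32 (SE 0.076). CENPE rose by 0.19 (SE 0.058), but by 0.12, at an adjusted p of 0.131, without BAY replicate 3. The CENPE call was also lost in 1 fit of all libraries and against the second subset's solvent libraries alone.

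In the spindle group 6 of 8 genes rose. ASPM, a spindle pole protein gene, had 174, 204 and 228 CPM with BAY and 147, 152, 146, 145 and 135 CPM with solvent (log2 fold change 0.50, SE 0.084, adjusted p = 0.000285). The BAY libraries differed among themselves more than the solvent libraries did, but all lay above them. HMMR, a microtubule-binding hyaluronan receptor gene, and NUSAP1, a microtubule bundler gene, rose by 0.33 (SE 0.067) and 0.30 (SE 0.053). PRC1 was the only central spindle gene called (log2 fold change 0.36, SE 0.061, adjusted p = 0.000181). TOP2A had 635, 635 and 679 CPM with BAY, against 453, 461, 432, 431 and 469.9 CPM with solvent. The gap between the groups was larger than the range within either (log2 fold change 0.55, SE 0.063, adjusted p = 3.58e-06). NCAPG and SMC4 followed at 0.48 (SE 0.065) and 0.32 (SE 0.053).

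**Figure D4:**
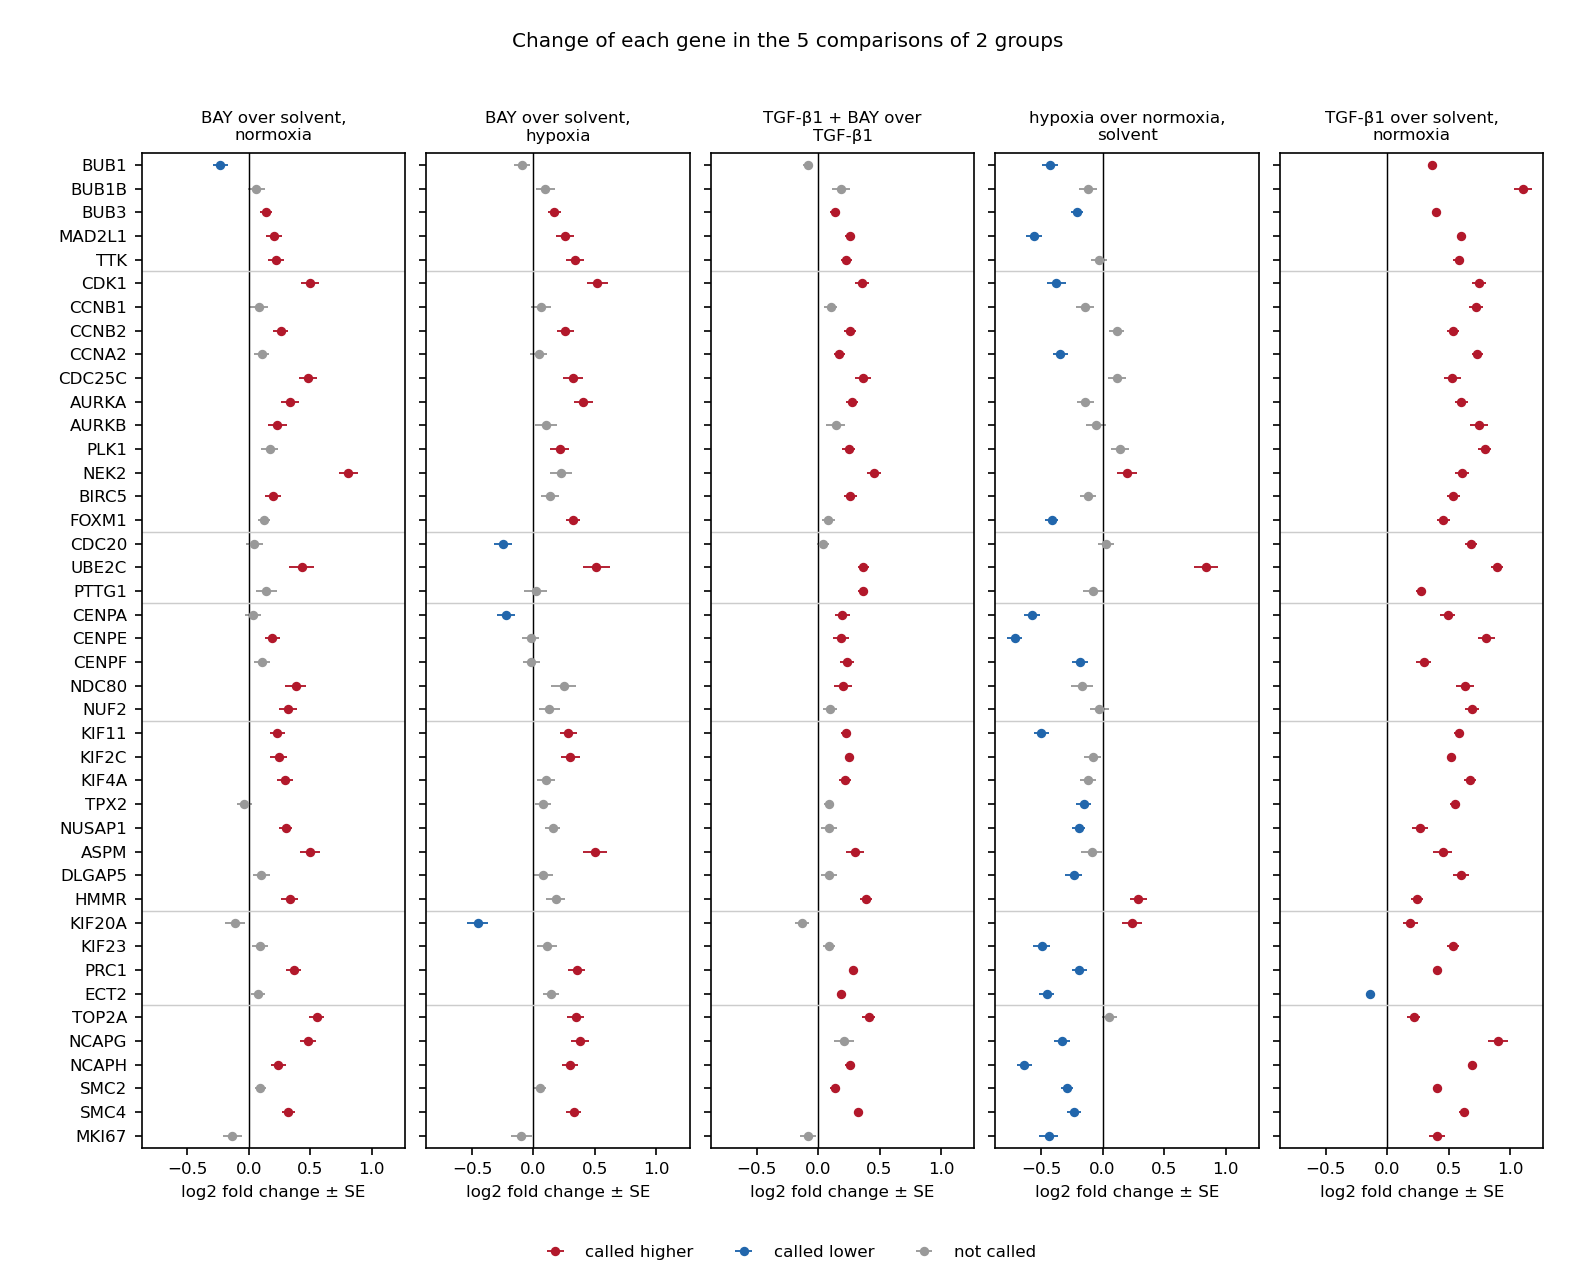
Each point is the log2 fold change of a gene with its SE (bars), by role from top to bottom, red where called higher, blue where called lower and grey where not called. With TGF-β1 41 points are red and ECT2 is blue, and in hypoxia 21 are blue and UBE2C stands alone far to the right.

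Under hypoxia BAY also raised part of the list. Against hypoxic solvent cells 18 genes rose, 3 fell (CDC20, CENPA and KIF20A) and 21 were not called, where 16.5% of all tested genes were called higher and 21.4% lower. The median log2 fold change was 0.16 for the 42 genes and -0.02 for all tested genes. The counts lean on single libraries. Without hypoxic solvent replicate 3, which had the highest summed level of its group, 29 genes rose and 1 fell. When hypoxic solvent replicate 1 or 2 was left out, 15 genes rose. Without replicate 2 of hypoxia with BAY, the highest of that group, the median log2 fold change of the 42 genes was 0.09 and 4 genes fell. Leaving out each library in turn, 31.5% to 38.7% of all tested genes were called in either direction.

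CDK1 had 77.8, 83.9 and 78.0 CPM in hypoxic cells with BAY, against 49.7, 50.1 and 67.0 CPM in hypoxic solvent cells. Solvent replicate 3 was the nearest to the BAY libraries but still below them (log2 fold change 0.52, SE 0.087, adjusted p = 0.000265). AURKA, the spindle pole kinase gene, and CDC25C rose by 0.41 (SE 0.080) and 0.32 (SE 0.081). TTK had 46.5, 50.9 and 45.3 CPM with BAY and 35.0, 34.4 and 43.3 CPM with solvent, without overlap (log2 fold change 0.34, SE 0.075, adjusted p = 0.00219). MAD2L1 rose by 0.26 (SE 0.071), a call lost without solvent replicate 1 or 2, at adjusted p = 0.0542 and 0.0596. BUB3, the partner of BUB1 and BUB1B at kinetochores, rose by 0.17 (SE 0.055) with overlapping groups, and leaving out BAY replicate 1 or 2 or solvent replicate 1 or 2 ended that call, with adjusted p from 0.0638 to 0.119.

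UBE2C had 128, 151 and 149 CPM in hypoxic cells with BAY and 88.5, 88.7 and 122 CPM in hypoxic solvent cells. All 3 BAY libraries lay above the solvent libraries, of which replicate 3 came nearest (log2 fold change 0.51, SE 0.11, adjusted p = 0.00258). CDC20, the activator of the anaphase-promoting complex, had 63.2, 77.7 and 64.3 CPM with BAY, against 76.6, 77.1 and 89.2 CPM with solvent. The groups overlapped, and the fall (log2 fold change -0.25, SE 0.075, adjusted p = 0.0158) was not called without BAY replicate 1, BAY replicate 3 or solvent replicate 3, with adjusted p from 0.0746 to 0.0881. CENPA, the centromeric histone gene, had 9.85, 10.6 and 9.60 CPM with BAY, against 10.7, 11.1 and 13.2 CPM with solvent. Its groups did not overlap, yet the fall (log2 fold change -0.22, SE 0.073, adjusted p = 0.0244) was lost without the same libraries, with adjusted p from 0.0741 to 0.133. The CENPA call was also lost with replicate number as a block and in 1 fit of all libraries.

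KIF20A had 60.5, 80.2 and 61.3 CPM in hypoxic cells with BAY and 90.1, 89.7 and 96.3 CPM in hypoxic solvent cells. BAY replicate 2 was nearer to the solvent libraries than the other two, and all 3 lay below them (log2 fold change -0.46, SE 0.088, adjusted p = 0.000902). Its exons overlap those of BRD8 and CDC23 on the other strand, and whether strand was used in quantification is not given in the sources used here. PRC1, from the same role group, rose by 0.35 (SE 0.070). ASPM had 185, 221 and 174 CPM with BAY, against 138, 129 and 142 CPM with solvent, and every BAY library was the higher (log2 fold change 0.50, SE 0.095, adjusted p = 0.000845). KIF2C, a microtubule-depolymerising kinesin gene, and KIF11 rose by 0.30 (SE 0.076) and 0.28 (SE 0.070). TOP2A had 554, 651 and 577 CPM with BAY and 431, 440.3 and 527 CPM with solvent (log2 fold change 0.34, SE 0.071, adjusted p = 0.00118), again with solvent replicate 3 closest. NCAPG and SMC4 rose by 0.38 (SE 0.074) and 0.33 (SE 0.060).

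On top of TGF-β1, BAY raised 28 of the 42 genes and lowered none, and 14 were not called, where 13.9% of all tested genes were called higher and 15.6% lower. The median log2 fold change was 0.21 for the 42 genes and 0.01 for all tested genes. Within subsets the medians were 0.22 and 0.21.

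NEK2 had 80.1, 80.5, 92.0, 88.2 and 94.0 CPM with TGF-β1 plus BAY, against 56.6, 60.2, 65.9, 65.6 and 68.2 CPM with TGF-β1 alone. No library of TGF-β1 alone reached any with BAY (log2 fold change 0.46, SE 0.057, adjusted p = 6.5e-06). CDC25C and CDK1 rose by 0.37 (SE 0.068) and 0.36 (SE 0.057). Of checkpoint genes MAD2L1 rose the most (log2 fold change 0.26, SE 0.038, adjusted p = 4.74e-05), followed by TTK at 0.23 (SE 0.045) and BUB3 at 0.13 (SE 0.034), which in the first subset alone was 0.09 at an adjusted p of 0.052. PTTG1 had 79.8, 82.6, 87.1, 85.1 and 91.1 CPM with TGF-β1 plus BAY and 65.7, 64.6, 66.4, 66.3 and 67.5 CPM with TGF-β1 alone. Its values with TGF-β1 alone were nearly equal and all lay under those with BAY (log2 fold change 0.36, SE 0.040, adjusted p = 1.49e-06). UBE2C rose by a like amount (log2 fold change 0.37, SE 0.045, adjusted p = 4.62e-06).

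Kinetochore changes were small: CENPF, a large outer kinetochore protein gene, rose by 0.24 (SE 0.059) but by 0.15 at an adjusted p of 0.0615 in the second subset alone, NDC80 by 0.21 (SE 0.073) and CENPA by 0.20 (SE 0.062). The groups of NDC80 and CENPA overlapped, and the NDC80 call was lost in the first subset alone. Their calls were lost without any 1 of TGF-β1 plus BAY replicates 3 to 5 or TGF-β1 replicates 1 and 2, with adjusted p from 0.0884 to 0.119 for NDC80 and from 0.0558 to 0.0689 for CENPA; NDC80 also missed the threshold without any 1 normoxic BAY library, with adjusted p from 0.0515 to 0.0518. HMMR had 109, 104, 123, 115 and 119 CPM with TGF-β1 plus BAY, against 80.4, 83.3, 89.5, 90.3 and 91.3 CPM with TGF-β1 alone, and the groups lay apart (log2 fold change 0.39, SE 0.047, adjusted p = 4.12e-06). ASPM and KIF2C rose by 0.30 (SE 0.076) and 0.26 (SE 0.038), and PRC1 by 0.29 (SE 0.035); in the second subset alone the change of ASPM was 0.23, at an adjusted p of 0.114. ECT2 had 128, 125, 136, 127 and 132 CPM with TGF-β1 plus BAY and 108, 111, 117, 118 and 116 CPM with TGF-β1 alone. All libraries with BAY were the higher (log2 fold change 0.19, SE 0.035, adjusted p = 0.000466), at levels like those of normoxic solvent cells. TOP2A had 647, 641, 748, 713 and 725 CPM with TGF-β1 plus BAY, against 484, 476, 546, 553 and 551 CPM with TGF-β1 alone, without overlap (log2 fold change 0.41, SE 0.052, adjusted p = 7.39e-06). SMC4 and NCAPH rose by 0.33 (SE 0.037) and 0.26 (SE 0.038).

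Across the 3 BAY comparisons, 15 genes were called higher in each: BUB3, MAD2L1, TTK, CDK1, CCNB2, CDC25C, AURKA, UBE2C, KIF11, KIF2C, ASPM, PRC1, TOP2A, NCAPH and SMC4. Of the 20928 genes tested in both fits 5.01% were called higher in each, and 37.1% were called in none. The comparisons draw on separate libraries. Of the 42 genes, those called in none were BUB1B, CCNB1, TPX2, DLGAP5, KIF23 and MKI67, although TGF-β1 raised all 6. A gene not called may still have changed by less than these libraries could show.

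**Figure D5:**
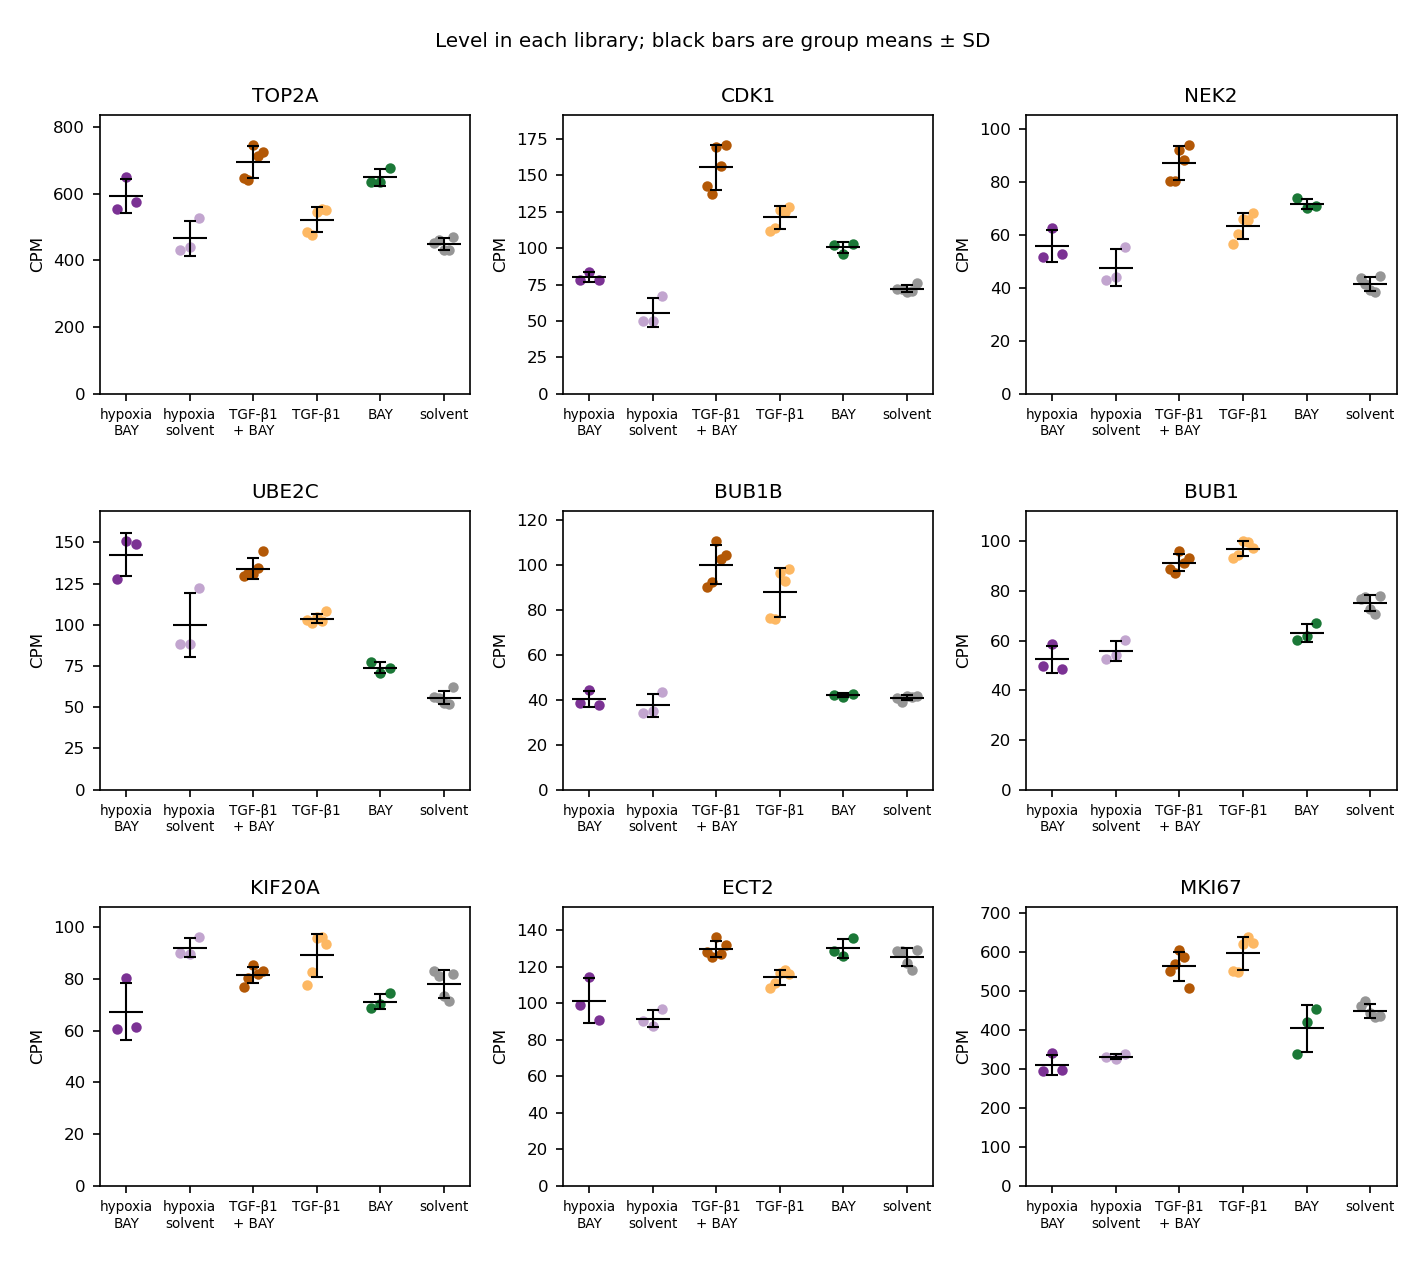
Points are CPM in single libraries and black bars the mean and SD of each group, with each axis starting at 0. TOP2A, CDK1, NEK2 and UBE2C are higher with BAY than without it in each pair of groups by mean, BUB1B follows TGF-β1 alone, and KIF20A is lower with BAY than without it in each pair by mean.

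Whether the BAY effect differed with oxygen or with TGF-β1 was tested by interaction terms. With oxygen, 1 of the 42 genes was called, where 8.83% of all tested genes were called higher and 7.92% lower. This was NEK2, at 51.6, 62.5 and 52.8 CPM in hypoxic cells with BAY, against 42.7, 44.2 and 55.5 CPM in hypoxic solvent cells. The hypoxic groups overlapped through solvent replicate 3, whereas the normoxic groups given above lay far apart (log2 difference of fold changes -0.59, SE 0.12, adjusted p = 0.00478, as the change in hypoxia minus that in normoxia). Without hypoxic solvent replicate 3 the difference was -0.46, at an adjusted p of 0.00434.

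With TGF-β1, 3 of the 42 were called, where 13.7% of all tested genes were called higher and 7.08% lower. NEK2 rose less with BAY on top of TGF-β1 than with BAY alone (log2 difference of fold changes -0.33, SE 0.087, adjusted p = 0.00984). PTTG1 rose more (log2 difference of fold changes 0.24, SE 0.062, adjusted p = 0.00829), though at an adjusted p of 0.082 when all 24 libraries shared 1 fit. It had 59.9, 58.5 and 60.1 CPM with BAY alone and 56.0, 55.4, 52.4, 50.3 and 59.4 CPM with solvent, groups that overlapped. BUB1 stood at 88.9, 87.4, 96.3, 91.4 and 93.4 CPM with TGF-β1 plus BAY and 93.4, 94.4, 100.3, 99.6 and 97.3 CPM with TGF-β1 alone, overlapping groups. Its change there was below 0 but not called (log2 fold change -0.085), a smaller fall than that with BAY alone (log2 difference of fold changes 0.17, SE 0.057, adjusted p = 0.048). The BUB1 call was marginal: it was lost on leaving out any 1 of 11 libraries, namely TGF-β1 plus BAY replicates 3, 4 and 5, TGF-β1 replicates 1, 2 and 4, normoxic BAY replicates 1 and 2 and solvent replicates 1, 2 and 5, with adjusted p from 0.0513 to 0.147.

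Hypoxia by itself lowered part of the list and raised a few genes. Against normoxic solvent cells 21 of the 42 fell, 4 rose and 17 were not called, where 31.6% of all tested genes were called lower and 29.2% higher. The median log2 fold change was -0.16 for the 42 genes and -0.02 for all tested genes. At 1.5-fold or more, UBE2C rose and CENPE and NCAPH fell, where 14.1% of all tested genes rose and 14.9% fell that far. Hypoxic solvent replicate 3 again weighed on the counts: without it 32 genes fell and 2 rose. In the other direction, 7 genes rose without hypoxic solvent replicate 1, and 16 fell without replicate 2. Leaving out each library in turn, 54.9% to 60.6% of all tested genes were called in either direction.

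CENPE had 31.1, 32.7 and 34.9 CPM in hypoxic solvent cells, against 54.2, 55.6, 54.4, 55.4 and 50.3 CPM in normoxic solvent cells. All 3 hypoxic libraries were far below all 5 normoxic ones (log2 fold change -0.71, SE 0.061, adjusted p = 4.81e-08). CENPA had 10.7, 11.1 and 13.2 CPM in hypoxic cells and 17.5, 17.4, 16.5, 17.8 and 17.5 CPM in normoxic cells, without overlap (log2 fold change -0.57, SE 0.066, adjusted p = 1.52e-06). CENPF fell by 0.18 (SE 0.064), a call lost without hypoxic solvent replicate 1 or 2, at adjusted p = 0.0963 and 0.081. It was also lost against either subset's solvent libraries alone. Of checkpoint genes MAD2L1 had 30.7, 30.4 and 37.8 CPM in hypoxic cells, against 51.2, 50.0, 45.6, 45.7 and 50.6 CPM in normoxic cells, again without overlap (log2 fold change -0.56, SE 0.065, adjusted p = 1.63e-06). BUB1 and BUB3 fell by 0.43 (SE 0.061) and 0.21 (SE 0.050), BUB3 with groups that touched and, against the second subset's solvent libraries alone, an adjusted p of 0.135.

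FOXM1 had 83.7, 81.0 and 88.6 CPM in hypoxic cells and 111, 115, 112, 111 and 114 CPM in normoxic cells. The groups lay well apart (log2 fold change -0.42, SE 0.051, adjusted p = 2.87e-06). CDK1 and CCNA2 fell by 0.38 (SE 0.079) and 0.35 (SE 0.062). Among spindle genes KIF11 had 50.3, 50.2 and 58.6 CPM in hypoxic cells, against 75.8, 78.0, 71.3, 72.8 and 76.7 CPM in normoxic cells, without overlap (log2 fold change -0.50, SE 0.064, adjusted p = 4.99e-06). DLGAP5 fell by 0.24 (SE 0.071) with overlapping groups, a call lost without hypoxic solvent replicate 1 or 2, at adjusted p = 0.0828 and 0.0819. It was also lost against the second subset's solvent libraries alone. KIF23 and ECT2 fell by 0.49 (SE 0.070) and 0.45 (SE 0.060). NCAPH had 21.2, 22.4 and 24.0 CPM in hypoxic cells and 35.8, 35.2, 33.9, 34.2 and 36.4 CPM in normoxic cells, the widest relative gap of the chromosome structure group (log2 fold change -0.64, SE 0.059, adjusted p = 1.34e-07). NCAPG fell by 0.33 (SE 0.067).

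The 4 genes that rose came from 4 role groups. UBE2C had 88.5, 88.7 and 122 CPM in hypoxic solvent cells, against 56.3, 55.9, 52.9, 52.0 and 62.4 CPM in normoxic solvent cells. Each hypoxic library was the higher and replicate 3 the highest by far (log2 fold change 0.84, SE 0.098, adjusted p = 5.75e-06), and without that replicate the rise was 0.67. HMMR had 84.0, 84.0 and 101 CPM in hypoxic cells, against 76.7, 75.0, 69.9, 69.0 and 76.7 CPM in normoxic cells (log2 fold change 0.29, SE 0.067, adjusted p = 0.00141), and without replicate 3 its rise was 0.20. KIF20A had 90.1, 89.7 and 96.3 CPM in hypoxic cells and the normoxic solvent values given above, without overlap (log2 fold change 0.24, SE 0.078, adjusted p = 0.0162), a call lost without replicate 3 at an adjusted p of 0.0772. It was also lost with replicate number as a block and against the first subset's solvent libraries alone. NEK2, with the values given above, rose by 0.20 (SE 0.081, adjusted p = 0.0483) with overlapping groups. Without replicate 3 only 2 genes were called higher, UBE2C and HMMR, so the NEK2 call was lost too.

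MKI67, which encodes the Ki-67 antigen that coats mitotic chromosomes, was followed through every comparison. It had 294, 341 and 298 CPM in hypoxic cells with BAY and 330.4, 326 and 338 CPM in hypoxic solvent cells, overlapping groups (log2 fold change -0.10, SE 0.084, adjusted p = 0.401). With TGF-β1 plus BAY it had 551, 568, 604, 588 and 508 CPM, against 551, 549, 619.7, 639 and 622 CPM with TGF-β1 alone, which overlapped too (log2 fold change -0.08, SE 0.068, adjusted p = 0.42). Normoxic cells with BAY had 338, 420.2 and 453 CPM and normoxic solvent cells 461, 475, 444, 434 and 435 CPM, with BAY replicate 1 far below the other two (log2 fold change -0.14, SE 0.075, adjusted p = 0.167). No BAY comparison was called, and all 3 estimates were below 0; without normoxic BAY replicate 3 that in normoxia was -0.24, at an adjusted p of 0.025. The same gene rose with TGF-β1 (log2 fold change 0.41, SE 0.068, adjusted p = 4.07e-05), although within the first subset alone the rise was 0.31 at an adjusted p of 0.059, and fell in hypoxia (log2 fold change -0.44, SE 0.076, adjusted p = 0.00014). Its interaction estimates were 0.04 (SE 0.113) with oxygen and 0.07 (SE 0.104) with TGF-β1, neither called.

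Other genes of the mitotic pathway were counted from lists outside the 42, to be read against the shares of all tested genes, which with TGF-β1 were 29.5% called higher and 32.5% lower. With TGF-β1, 25 of 29 other kinetochore and checkpoint genes rose and 2 fell, and 27 of 28 other spindle and cytokinesis genes rose and 1 fell. The largest were CENPW, a centromere protein gene, at 63.9 CPM with TGF-β1 and 12.9 CPM with solvent (log2 fold change 2.31, SE 0.090), and KIF14, a cytokinesis kinesin gene, at 96.6 CPM with TGF-β1 and 58.3 CPM with solvent. Of 17 other regulators of mitotic entry and exit 15 rose and 1 fell, led by PKMYT1, an inhibitory kinase of CDK1 (0.81, SE 0.056). Among 14 core subunits of the anaphase-promoting complex 9 rose and 2 fell, with a median of 0.14, and 13 of 15 cohesin and other condensin genes rose and 0 fell. Of 16 B-MYB, MuvB and RB-E2F regulators 10 rose and 3 fell. Among them MYBL2, which encodes B-MYB, stood at 339 CPM with TGF-β1 and 165 CPM with solvent (1.04, SE 0.041), and E2F7, a repressor of the E2F family, at 75.4 CPM with TGF-β1 and 21.3 CPM with solvent (1.82, SE 0.080). S-phase genes rose in 23 of 28 cases and fell in 2. Of 16 G1 cyclins, their kinases and CDK inhibitors 11 rose and 4 fell. In the same libraries CDKN2B, the p15 inhibitor of the G1 kinases and a known TGF-β target, stood at 96.0 CPM with TGF-β1 and 10.7 CPM with solvent (3.16, SE 0.076), and CCND2, a D-type cyclin gene, at 6.07 CPM with TGF-β1 and 42.5 CPM with solvent (-2.81, SE 0.117).

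In hypoxia the S-phase list had the largest median change of the lists, a difference between lists that was not tested. Among all tested genes 31.6% were called lower in hypoxia and 29.2% higher. Of 28 S-phase genes 26 fell and 2 rose, with a median log2 fold change of -0.99, against -0.43 for other kinetochore and checkpoint genes (19 of 29 fell, 2 rose) and -0.28 for other spindle and cytokinesis genes (18 of 28 fell, 1 rose). PCNA, the sliding clamp of DNA polymerases, stood at 68.4 CPM in hypoxic solvent cells and 243 CPM in normoxic solvent cells, and CLSPN, a replication checkpoint adaptor gene, at 11.6 CPM in hypoxic and 52.8 CPM in normoxic solvent cells. Of 16 B-MYB, MuvB and RB-E2F regulators 12 fell and 3 rose, and of 16 G1 genes 9 fell and 2 rose. E2F1 stood at 19.4 CPM in hypoxic and 49.8 CPM in normoxic solvent cells (-1.36, SE 0.075), CCND1 at 4.74 CPM in hypoxic and 17.8 CPM in normoxic cells (-1.90, SE 0.143) and CCNE2 at 6.03 CPM in hypoxic and 22.4 CPM in normoxic cells (-1.90, SE 0.146). Of 14 core subunits of the anaphase-promoting complex 9 fell and 2 rose. ANAPC7 stood at 27.0 CPM in hypoxic and 61.2 CPM in normoxic solvent cells. Of 15 cohesin and other condensin genes 9 fell and 2 rose.

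With BAY the lists outside the 42 are set against the shares of all tested genes, which were 20.6% called higher and 23.3% lower in normoxia, 16.5% higher and 21.4% lower in hypoxia, and 13.9% higher and 15.6% lower on top of TGF-β1. In normoxia 15 of 29 other kinetochore and checkpoint genes rose and none fell, in hypoxia 16 rose and 1 fell, and on top of TGF-β1 8 rose and 2 fell. The largest of these changes on top of TGF-β1 was a fall. CENPW stood at 41.2 CPM with TGF-β1 plus BAY and 63.9 CPM with TGF-β1 alone (-0.63, SE 0.085). Of 28 other spindle and cytokinesis genes 16 rose and 1 fell in normoxia, 14 rose and 2 fell in hypoxia, and 16 rose and 1 fell on top of TGF-β1. TROAP, a spindle protein gene, stood at 56.0 CPM in normoxic cells with BAY and 31.3 CPM with solvent (0.86, SE 0.105). S-phase genes rose in 13 of 28 cases and fell in 6 in normoxia, rose in 14 and fell in 1 in hypoxia, and rose in 2 and fell in 11 on top of TGF-β1. In the TGF-β1 by BAY interaction 6 of the 28 were called lower and 1 higher, where 7.08% of all tested genes were called lower and 13.7% higher. RRM2, the regulated subunit of ribonucleotide reductase, stood at 713 CPM in normoxic cells with BAY and 180.0 CPM with solvent (2.01, SE 0.077), and at 230.2 CPM in hypoxic cells with BAY and 77.9 CPM in hypoxic solvent cells (1.56, SE 0.091). With TGF-β1 plus BAY it stood at 238 CPM, against 209 CPM with TGF-β1 alone. Its change with BAY was much smaller there than in normoxia without TGF-β1 (log2 difference of fold changes -1.80, SE 0.072). Of the 16 G1 genes 6 rose and 7 fell in normoxia, 5 rose and 8 fell in hypoxia, and 2 rose and 5 fell on top of TGF-β1. The CDK inhibitor gene CDKN1C stood at 239 CPM in normoxic cells with BAY and 36.4 CPM with solvent (2.74, SE 0.151), at 361 CPM in hypoxic cells with BAY and 46.8 CPM in hypoxic solvent cells (2.94, SE 0.182), and at 15.4 CPM with TGF-β1 plus BAY and 8.28 CPM with TGF-β1 alone (0.89, SE 0.224). UBE2S, which works after UBE2C to lengthen ubiquitin chains at the anaphase-promoting complex, stood at 201 CPM with TGF-β1 plus BAY and 120 CPM with TGF-β1 alone (0.74, SE 0.044). On top of TGF-β1, 6 of the 16 B-MYB, MuvB and RB-E2F regulators rose and 3 fell. E2F7 stood at 94.0 CPM with TGF-β1 plus BAY and 75.4 CPM with TGF-β1 alone (0.32, SE 0.077), and MYBL2 at 274 CPM with TGF-β1 plus BAY and 339 CPM with TGF-β1 alone (-0.30, SE 0.041). Of 14 core subunits of the anaphase-promoting complex 2 fell and 0 rose with BAY in normoxia, in hypoxia 3 fell and 3 rose, and on top of TGF-β1 3 fell and 1 rose.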

How the data were processed

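Poly(A) RNA of 24 HK-2 libraries was measured. A gene of the marker lists is not reported here. What the authors deposited is a single table of estimated counts by Ensembl gene; the submitters' processing notes name Salmon, DESeq2 and GRCh38 (hg38). Tool versions, annotation and strand setting: not given in the sources used here. Of the deposited estimated counts above 0, 48.6% were not whole, and all were rounded. Salmon shares out ambiguous reads among similar transcripts, and CCNA2, CDC25C, CENPA, FOXM1, KIF20A, KIF4A, NCAPG, PRC1 and SMC4 have an exon overlapping another expressed gene, so their values may hold reads of a neighbour. No step removed such reads.

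The members, their role groups and the other gene lists were chosen with earlier results of these data known. A gene name table gave symbols for 58919 of the 65180 Ensembl IDs; 3 listed symbols outside the members (CENPN, KIF15 and E2F2) were not found. Positions and exon lengths came from GENCODE 29 on GRCh38. In edgeR 4.0.16 (R 4.3.3) libraries were scaled by TMM, genes kept by filterByExpr and each comparison tested with the robust quasi-likelihood F-test (2-sided, 1 mean per group). There was a fit for the hypoxia experiment (14 libraries, 21316 genes) and one for the TGF-β1 experiment (18 libraries, 21639 genes), each with Benjamini-Hochberg adjustment across its genes. Every adjusted p printed is from this test, and genes below 0.05 are the called ones. The approximate SE is the absolute log2 fold change over the square root of F. CPM levels used TMM factors from all 24 libraries together.

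Named members are, per comparison of 2 groups, the up to 3 called members of each role group with the largest change, plus MKI67; per interaction, the called members; and per other list, the 2 called genes with the largest change, of which some are printed. FOXM1, CCNA2, CCNB1, CCNB2, BIRC5, TPX2, SMC2, TOP2A and ECT2 with TGF-β1 and NEK2 in hypoxia fell outside that rule and were named after their values were seen, as were genes named only in listing which were called or not called. On simulated counts with known changes, 57 of 58 genes with a 2-fold change and 50 of 55 with a 1.5-fold change were called in the hypoxia comparison among genes of at least 500 counts. Changes under 1.5-fold, the size of most changes reported here, were not simulated. Taken over all genes together, replicates of a group differed by more than counting noise in all 39 pairs (chi-square per degree of freedom 5.17 to 43.9). This was not computed for single genes, so for any single member counting noise may weigh as much as the spread between replicates. Alternatives were DESeq2 1.42.0, other scaling, no filter, 1 fit of all libraries, a replicate block, leaving out each library and, chosen after seeing the data, the subsets of libraries.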

Additional observations from a re-analysis of the deposited data

Results flagged for a closer look

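In groups of 5 libraries, 2 of 126 gene-by-group sets had 1 library set apart from the other 4, where chance gives about 1 in 20. Both were normoxic solvent replicate 5: CENPE stood at 50.3 CPM against 54.2 to 55.6 CPM in the others, and NUF2 at 30.1 CPM against 26.6 to 27.6 CPM.

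A difference between settings in the BAY effect was called for 4 results. Of all tested genes, 16.8% were called in the oxygen by BAY interaction and 20.7% in the TGF-β1 by BAY interaction. The change of NEK2 with BAY differed by -0.59 (log2) between hypoxia and normoxia, and by -0.33 between cells with and without TGF-β1. The change of PTTG1 with BAY differed by 0.24 between cells with and without TGF-β1, and that of BUB1 by 0.17.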

How the results depend on the processing

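Over 103 pairs of a named gene and a comparison, 2389 values under other settings gave 2310 with the same direction and side of the threshold, 73 that missed it, 1 that newly passed it and 5 that changed sign. The 5 sign changes were all of MKI67 in results not called: its oxygen by BAY estimate was -0.03 without replicate 2 of hypoxia with BAY and -0.049 without normoxic BAY replicate 1 (highest without any 1 library, 0.15), its change with BAY on TGF-β1 was 0.012 in the first subset, and its TGF-β1 by BAY estimate was -0.040 without normoxic BAY replicate 1 (highest without any 1 library, 0.16) and -0.029 in the second subset. Leaving out 1 library, members called higher and lower ranged from 17 to 28 and 1 to 2 with BAY in normoxia, from 2 to 7 and 16 to 32 in hypoxia, from 15 to 29 and 1 to 4 with BAY in hypoxia, from 0 to 2 and 1 to 5 for the oxygen by BAY interaction, were 41 and 1 throughout with TGF-β1, and ranged from 25 to 31 and 0 to 1 with BAY on TGF-β1 and from 1 to 4 and 1 to 2 for the TGF-β1 by BAY interaction. Over the same fits, the share of all tested genes called in either direction ranged from 35.1% to 45.1% with BAY in normoxia. It ranged from 54.9% to 60.6% in hypoxia and from 31.5% to 38.7% with BAY in hypoxia. With TGF-β1 it ranged from 60.2% to 62.3%, and with BAY on TGF-β1 from 26.5% to 29.9%. For the interactions it ranged from 11.7% to 18.4% with oxygen and from 16.3% to 21.9% with TGF-β1. Without a filter on low counts, more genes were tested and the share of all genes called fell to 21.7% with BAY in normoxia, 32.1% in hypoxia, 18.5% with BAY in hypoxia, 7.21% for the oxygen by BAY interaction, 32.5% with TGF-β1, 13.2% with BAY on TGF-β1 and 8.82% for the TGF-β1 by BAY interaction, in which 1 member was then called higher. Deviations of same-numbered samples correlated weakly (from -0.0433 to 0.0855 over 18 pairs in the hypoxia experiment and -0.112 to 0.171 over 24 pairs in the other). Samples with different numbers were not compared, so pairing by number was not tested. Same-numbered solvent, TGF-β1 and TGF-β1 plus BAY libraries shared a subset, except in pairs with solvent replicate 5. Only the pairs with solvent replicate 5 had negative correlations among these groups (-0.0382 and -0.112). With replicate number as a block, 2 members rose in hypoxia and 4 were called lower in the TGF-β1 by BAY interaction, and the other counts kept within 1.5 times. DESeq2 called 1 member higher and 2 lower in the oxygen by BAY interaction. With BAY on TGF-β1, 1 member was called lower under DESeq2, its size factors in edgeR, the second subset and the subset as a factor. In 1 fit of all libraries 0 members were called higher in the TGF-β1 by BAY interaction. With solvent, TGF-β1 and TGF-β1 plus BAY libraries of the first subset only, 2 members rose in hypoxia, 1 was called higher in the oxygen by BAY interaction (27.6% of all genes called) and 5 higher and 9 lower in the TGF-β1 by BAY interaction (32.7%); with the second subset only, 0 fell with BAY in normoxia, 0 fell with TGF-β1 and 6 were called lower in the TGF-β1 by BAY interaction. The cause of these changes was not tested. Without TMM, the summed level of the members was 5442 CPM in normoxic cells with BAY and 4601 CPM in normoxic solvent cells.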
